A study of Mus musculus with 20 samples.

Results

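Liver zonation genes are genes whose level in hepatocytes differs between the central vein and the portal tract of the liver lobule. The 10 genes described were followed here by gene symbol in the deposited count table, 5 pericentral (Glul, Oat, Slc1a2, Rhbg and Lhpp) and 5 periportal (Hal, Sds, Gls2, Pck1 and Cdh1), of 54532 genes listed. All 10 had counts high enough to be tested, among 17187 genes tested. The study followed colorectal liver metastasis (CRLM) in wild-type C57BL/6 mice by bulk RNA sequencing of liver pieces with an increasing content of tumor. Mc38 cells, a colon adenocarcinoma line of the same strain, were injected through the spleen and reached the liver by the portal vein. The control group (con) had received saline and was taken at day 0, with 2 libraries. Liver without tumor, taken away from the metastases of an injected mouse at 12 days post injection (dpi), had 1 library (L-con). Low-content tumor (Lt) and the medium-content group Mt3 were taken at 9 dpi, the medium-content groups Mt2 and Mt1 at 11 dpi and high-content tumor (Ht) at 12 dpi. Lt, Mt3, Mt2 and Mt1 had 2 libraries each. Ht had 3, of which the first and the third were summed to 1 sample, so that Ht had 2 samples. The labels give male mice and the methods of the study female mice of 6 to 8 weeks. Days 9, 11 and 12 each held 2 groups of different tumor content, while con alone was at day 0. In comparisons from con the injection and the day therefore cannot be told apart. No Mt sample shared a day with Ht, so from Mt to Ht the tumor content and the day cannot be told apart either.

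Blood enters the lobule at the portal tract and leaves at the central vein, and hepatocytes along this path divide the handling of nitrogen between them. Periportal hepatocytes break down amino acids, release ammonia for urea synthesis and make glucose, while the hepatocytes next to the central vein take up glutamate and the remaining ammonia and join them to glutamine. Wnt ligands and R-spondin from the endothelium of the central vein maintain the pericentral program through beta-catenin.

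Levels are given as counts scaled by TMM to a common library size (CPM) and, where genes are compared with each other, as fragments per kilobase of gene length, scaled in the same way (FPKM). The 14 tissue libraries held 16032085 to 18246623 counts. The floor of detection was taken as 3 counts, which stood for 0.164 to 0.187 CPM before TMM scaling. Floors cover counting error only. A gene was called higher or lower in edgeR's quasi-likelihood test at a Benjamini-Hochberg adjusted p of at most 0.05 with a log2 fold change of at least 1 in either direction. In liver pieces, fewer hepatocytes and less RNA of a gene per hepatocyte cannot be told apart.

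In con, Pck1 had the highest FPKM of the 10 genes with a mean of 1164, ahead of Oat at 531. Glul (284), Gls2 (268), Sds (233) and Hal (131) came next, and the con samples of each of these overlapped those of its neighbor in the order. Lhpp followed at 38.3 FPKM, then Cdh1 at 20.5 and Slc1a2 at 17.7, which overlapped, and Rhbg was lowest at 0.992. In Ht the order was led by Glul at 36.8 FPKM, Oat at 29.8 and Pck1 at 22.5, the last pair overlapping. The other 7 genes lay between 1.97 FPKM (Lhpp) and 0.143 FPKM (Rhbg) in Ht, with Hal at 0.357 FPKM.

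Glul encodes glutamine synthetase, which joins ammonia to glutamate and, among hepatocytes, is confined to those around the central vein. Cells other than hepatocytes can hold it too, as the sorted cells below show. Glul (ENSMUSG00000026473, chr1:153899944-153909723, GRCm38) was at 705 and 1180 CPM in con, at 1431 in L-con, at 1052 and 868 in Lt, at 1020 and 846 in Mt3, at 838 and 306 in Mt2, at 514 and 294 in Mt1 and at 127 and 117 in Ht. The Lt and Mt3 samples lay within the con range, the second Mt2 sample and both Mt1 samples lay under it, and both Ht samples were below the other 11. From con to Ht, Glul fell by 2.95 on the log2 scale (SE 0.52, edgeR's quasi-likelihood test, Benjamini-Hochberg adjusted p = 0.00105), from 942 ± 336 to 122 ± 6.83 CPM (SD, n = 2 samples each). The change from con to the mean of the Mt groups was -0.65 (SE 0.38, adjusted p = 0.181 in the same edgeR test) and did not pass.

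Oat encodes ornithine aminotransferase, the mitochondrial enzyme that turns ornithine into glutamate semialdehyde. Its level stood at 1303 and 1204 CPM in con, at 1531 in L-con, at 1070 and 697 in Lt, at 986 and 841 in Mt3, at 854 and 184 in Mt2, at 368 and 187 in Mt1 and at 71.7 and 69.0 in Ht. All Lt, Mt and Ht samples were below both con samples, and the second Mt2 and second Mt1 sample were the lowest outside Ht. Oat was lower by 1.30 from con to Mt (adjusted p = 0.0446) and by 4.16 from con to Ht (adjusted p = 0.000782) on the log2 scale, by edgeR's quasi-likelihood test.

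Slc1a2, the glutamate transporter GLT-1, was at 207 and 258 CPM in con, at 265 in L-con, at 160 and 136 in Lt, at 160 and 133 in Mt3, at 114 and 23.0 in Mt2, at 60.0 and 27.6 in Mt1 and at 3.48 and 3.37 in Ht. Its con mean was 67.8 times its Ht mean, the widest span among the pericentral genes, and its fall from con to Ht was 6.08 on the log2 scale (SE 0.75, edgeR adjusted p = 0.00023). Lhpp, a phosphatase that acts on phosphohistidine and phospholysine, went from 97.4 and 87.6 CPM in con to 4.73 and 4.80 in Ht, with 67.3 and 42.6 in Lt and 11.0 to 57.9 over the 6 Mt samples. Both genes were lower in every Lt, Mt and Ht sample than in con, and Lhpp differed from con to Ht by -4.28 (edgeR adjusted p = 0.000712).

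Rhbg, an ammonium transporter of the cell membrane, had few counts. The con samples held 21 and 24 counts of it, L-con 40, the Lt samples 72 and 69, the Mt3 samples 29 and 49, the Mt2 samples 41 and 24, the Mt1 samples 16 and 17, and the Ht samples 13 and 9, where the first Ht sample sums a pair of libraries. On the CPM scale these were 1.86 and 1.98 in con, 5.16 and 4.46 in both Lt samples and 0.242 and 0.313 in Ht. Rhbg was the gene among the 10 whose Lt samples both lay above both con samples, with a log2 fold change from con to Lt of 1.32 (SE 0.47) that missed the threshold after adjustment (edgeR adjusted p = 0.1005). Under scaling by total counts the same step passed. Rhbg fell by 2.45 from Mt to Ht (edgeR adjusted p = 0.0100) and by 2.79 from con to Ht (edgeR adjusted p = 0.00157) on the log2 scale.

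Hal encodes histidine ammonia-lyase, the enzyme that starts the breakdown of histidine. Hal (ENSMUSG00000020017, chr10:93488768-93519304, GRCm38) was at 784 and 674 CPM in con, at 626 in L-con, at 343 and 308 in Lt, at 473 and 293 in Mt3, at 263 and 25.3 in Mt2, at 125 and 19.0 in Mt1 and at 1.70 and 2.26 in Ht. All Lt, Mt and Ht samples were below both con samples, and the Ht values rested on 91 and 65 counts, above the floor. Its log2 fold change from con to Ht was -8.53 (SE 1.35, edgeR adjusted p = 0.000632), the largest of the 10 genes, and its con mean of 729 ± 77.7 CPM (SD, n = 2 samples) was 368 times the Ht mean. From con to Mt the change was -2.20 (SE 0.72, edgeR adjusted p = 0.0332).

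Sds encodes serine dehydratase, which splits serine into pyruvate and ammonia. Sds was at 591 and 198 CPM in con, at 295 in L-con, at 207 and 172 in Lt, at 97.5 and 135 in Mt3, at 85.4 and 14.1 in Mt2, at 48.0 and 6.87 in Mt1 and at 1.397 and 1.496 in Ht. The con samples were far apart and the lower one overlapped Lt, while every Mt and Ht sample was under both. Gls2, the glutaminase of the liver, which releases ammonia from glutamine and so runs the reaction opposite to Glul, was at 1184 and 679 CPM in con, at 578 in L-con, at 373 and 292 in Lt, at 375 and 303 in Mt3, at 258 and 30.7 in Mt2, at 106 and 31.0 in Mt1 and at 4.38 and 4.87 in Ht. All 8 Lt and Mt samples were under both con samples. From con to Mt, Sds differed by -2.87 (edgeR adjusted p = 0.00967) and Gls2 by -2.63 (edgeR adjusted p = 0.0086) on the log2 scale, the lowest values among the 10 genes, and from con to Ht by -8.09 and -7.65 (edgeR adjusted p = 0.000614 and 0.000433).

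The annotated spans of Sds and Gls2 overlap genes on the other strand. In Ht, Plbd2 had 5140 and 2850 counts beside 75 and 43 of Sds, and Spryd4 had 260 and 197 beside 235 and 140 of Gls2. Fgfr2, with 549 and 263 counts in Ht, overlaps Lhpp (254 and 138) on the other strand and Oat (3849 and 1982) on the same strand. Whether reads of these neighbors were counted for the zonation genes in Ht was not tested.

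Pck1, the cytosolic phosphoenolpyruvate carboxykinase of glucose synthesis, was at 4581 and 3402 CPM in con, at 2475 in L-con, at 2103 and 1140 in Lt, at 2771 and 1081 in Mt3, at 2207 and 367 in Mt2, at 1894 and 417 in Mt1 and at 53.9 and 101 in Ht. All samples after injection were below con, but replicates of 1 group were far apart in Mt3, Mt2 and Mt1, and the change from con to Mt of -1.49 did not pass (SE 0.69, edgeR adjusted p = 0.103). Cdh1, E-cadherin of epithelial junctions, was at 114 and 73.1 CPM in con, at 85.9 in L-con, at 86.7 and 51.7 in Lt, at 63.6 and 50.5 in Mt3, at 50.4 and 22.4 in Mt2, at 69.3 and 25.3 in Mt1 and at 6.18 and 7.76 in Ht. Cdh1 overlapped between con and Lt, and its change from con to Mt of -1.02 did not pass (edgeR adjusted p = 0.0586). With the replicate number as a block, Pck1 and Cdh1 were both called lower from con to Mt. From con to Ht, Pck1 fell by 5.69 and Cdh1 by 3.75 on the log2 scale (edgeR adjusted p = 0.00185 and 0.000532).

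**Figure D1:**
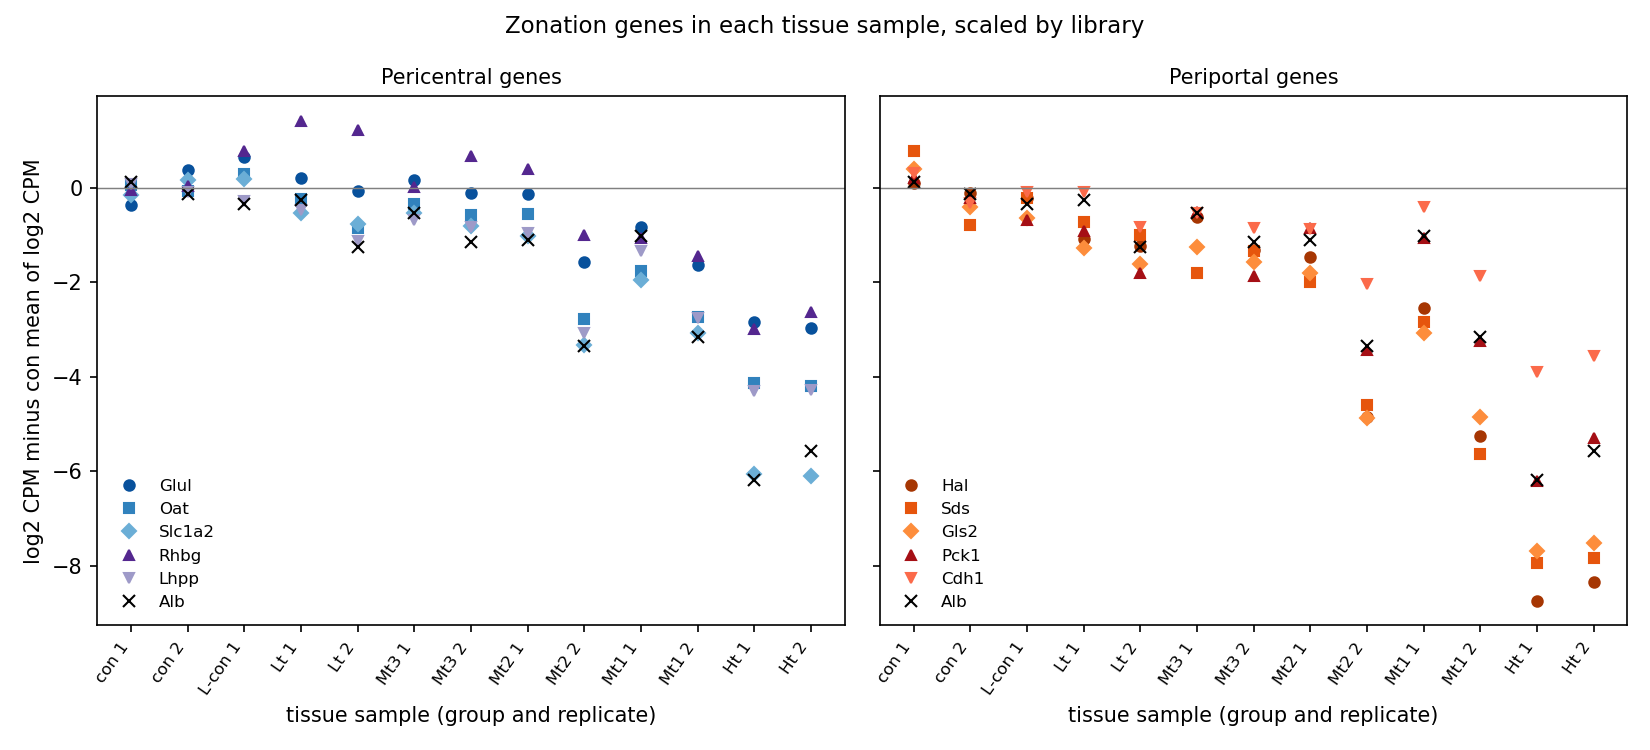
Log2 CPM minus the mean log2 CPM of the con samples (vertical axis) for the pericentral genes (left), the periportal genes (right) and Alb (crosses in both), in each of the 13 tissue samples along the horizontal axis, with 1 point per sample and the con mean as the line at 0. For every one of the 10 genes both Ht samples lie below the other 11, with Glul at 127 and 117 CPM and Hal at 1.70 and 2.26 CPM. Of all genes tested, 24.1% were called lower from con to Ht.

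Counted over the 10 genes, edgeR's quasi-likelihood test called 0 higher or lower from con to Lt, where 12.7% of all genes tested were called, 12.4% higher and 0.256% lower. Rhbg alone had an unadjusted p under 0.05 (1 of 10), and DESeq2's Wald test also called 0. Without a filter on low counts edgeR called 4 lower (Hal, Sds, Gls2 and Pck1), beside 377 of 29359 genes. With only the groups compared in the fit it called 2 lower (Hal and Gls2), beside 303 of 14406 genes. The median log2 fold change from con to Lt was -0.50 for the pericentral and -1.16 for the periportal genes, beside 0.10 for all genes tested. Leaving out any library of con or Lt gave 0 again in the edgeR test, with 0 or 1 of the 10 at an unadjusted p under 0.05.

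From con to Mt, 6 of the 10 were called lower (Oat, Slc1a2, Lhpp, Hal, Sds and Gls2), where 10.3% of all genes were called lower, 20.2% higher and 30.5% in either direction. DESeq2's Wald test called 8, with Pck1 and Cdh1 added. The medians were -1.30 for the pericentral and -2.20 for the periportal genes, beside 0.08 for all genes tested. This count depended on single libraries. Without the first con sample edgeR's quasi-likelihood test called 0, with 2 of 10 at an unadjusted p under 0.05, and without the second it called 2, Sds and Gls2. Without either Mt3 sample it called 3 (Slc1a2, Sds and Gls2) and without the second Mt1 sample 4, while without the first Mt2 or the first Mt1 sample it called 8.

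From Mt to Ht all 10 were called lower, where 13.4% of all genes were, beside 14.9% in either direction, with medians of -2.84 for the pericentral and -5.02 for the periportal genes beside 0.00 for all genes. Without the first Ht sample edgeR's quasi-likelihood test called 0 of 10 in this step and without the second also 0, although 10 of the 10 had an unadjusted p under 0.05 in each case. These fits called 0 of 17070 and 0 of 17111 genes in all, so the 0 is not particular to the zonation genes. The fold change of Hal from Mt to Ht lay between -6.66 and -5.46 over all alternatives, while the largest adjusted p of the 10 came to 0.181 (Pck1). DESeq2's Wald test on all samples called 10.

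From con to Ht all 10 were called lower, where 24.1% of all genes were, beside 25.8% higher and 49.9% in either direction, and the call held for all 10 without any library of con or Ht. The medians were -4.16 for the pericentral and -7.65 for the periportal genes beside 0.09 for all genes. Hal, Sds, Gls2 and Pck1 had larger falls than Glul, Oat, Rhbg and Lhpp, Slc1a2 at -6.08 lay between Gls2 and Pck1, and Cdh1 at -3.75 lay among the pericentral genes. The difference between the zones was not tested. The comparisons from con share their control samples and those with Mt or Ht share these.

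Scaling by total counts in place of TMM moved the median of all genes by 0.29 from con to Lt, 0.64 from con to Mt, 0.55 from Mt to Ht and 1.18 from con to Ht. Among all genes called, it moved the share called higher from 66.3% to 90.6% from con to Mt, from 10.0% to 59.3% from Mt to Ht and from 51.7% to 79.7% from con to Ht. Relative to the median of all genes, 9 of the 10 zonation genes were lower from con to Lt, with Rhbg as the exception, and 10 of 10 in the other 3 comparisons. With total counts edgeR called 1 gene from con to Lt, Rhbg, as higher. From con to Mt it called 4 lower (Slc1a2, Hal, Sds and Gls2), beside 575 of 17187 genes, and Oat and Lhpp lost their call.

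Albumin (Alb) is made by hepatocytes of all zones and was used here as a measure of hepatocyte RNA. Whether its level per hepatocyte was the same in all zones and all groups was not tested, so it may not be neutral between the zones. Alb was at 129470 and 108770 CPM in con, at 93603 in L-con, at 98780 and 49742 in Lt, at 81577 and 53735 in Mt3, at 55054 and 11689 in Mt2, at 58334 and 13300 in Mt1 and at 1626 and 2497 in Ht. The replicates of Lt, Mt2 and Mt1 were far apart, and the second Mt2 and second Mt1 sample, lowest outside Ht for Alb, were also the lowest pair outside Ht for 9 of the 10 zonation genes. The exception, Rhbg, was lowest outside Ht in 1 of the pair. Alb fell by 5.85 from con to Ht (SE 1.36, edgeR adjusted p = 0.00459), a con mean 57.8 times the Ht mean.

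The 12 hepatocyte markers, Alb included, were all called lower from con to Ht, as were 24.1% of all genes, with a median of -4.55. Their summed level stood at 209700 and 175800 CPM in con, at 173700 in L-con, at 190800 and 107300 in Lt, at 148500 and 118000 in Mt3, at 114100 and 32360 in Mt2, at 107700 and 29920 in Mt1 and at 4285 and 6249 in Ht. Alb was the most abundant of them in every sample and no marker was at or under the floor. The amount of hepatocyte RNA moved with the zonation genes, and each gene was therefore also taken per Alb count. This ratio cannot give the share of hepatocyte RNA in a gene's level. Alb per hepatocyte may change as well, and other cells may add counts of the gene.

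Per 1000 Alb counts, Glul was at 5.45 and 10.8 in con, at 15.3 in L-con, at 10.7 and 17.4 in Lt, at 12.5 and 15.7 in Mt3, at 15.2 and 26.2 in Mt2, at 8.81 and 22.1 in Mt1 and at 78.2 and 47.0 in Ht. Both Ht samples were above the other 11, and the Mt1 samples spanned the higher con sample. The log2 fold change relative to Alb, from the same edgeR test with the Alb count as the scale, was 2.94 from con to Ht (SE 0.67, adjusted p = 2.02e-05) and 1.92 from Mt to Ht (SE 0.47, adjusted p = 5.93e-05). Glul fell less than Alb.

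Oat per 1000 Alb counts was 10.1 and 11.1 in con and 44.1 and 27.6 in Ht, with 6.31 to 16.4 over the 9 samples between, and was higher relative to Alb from con to Ht (log2 fold change 1.76, edgeR adjusted p = 0.00683) and from Mt to Ht (1.46, edgeR adjusted p = 0.00246). Slc1a2 per 1000 Alb counts was 1.60 and 2.37 in con and 2.14 and 1.35 in Ht, and these overlapped, with a change relative to Alb of -0.18 from con to Ht (SE 0.84, edgeR adjusted p = 0.835). Lhpp went from 0.753 and 0.805 per 1000 Alb counts in con to 2.91 and 1.92 in Ht, without overlap. The change of Lhpp relative to Alb passed from Mt to Ht (1.5, edgeR adjusted p = 0.0433) but not from con to Ht (1.63, edgeR adjusted p = 0.101). Rhbg was 0.0144 and 0.0182 per 1000 Alb counts in con and 0.149 and 0.125 in Ht, and passed from con to Ht (3.06, SE 1.27, edgeR adjusted p = 0.0174) but not from Mt to Ht (1.63, edgeR adjusted p = 0.0875).

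Hal per 1000 Alb counts was at 6.06 and 6.20 in con, at 6.69 in L-con, at 3.47 and 6.20 in Lt, at 5.80 and 5.44 in Mt3, at 4.78 and 2.17 in Mt2, at 2.15 and 1.43 in Mt1 and at 1.04 and 0.906 in Ht. Values stayed near con up to Mt3 with the exception of the first Lt sample, were lower in the second Mt2 sample and in Mt1, and were lowest in Ht. Relative to Alb, Hal fell by 2.65 from con to Ht (SE 0.78, edgeR adjusted p = 0.000859) and by 1.75 from Mt to Ht (SE 0.67, edgeR adjusted p = 0.0107) on the log2 scale.

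Sds per 1000 Alb counts was 4.56 and 1.82 in con and 0.859 and 0.599 in Ht, and fell relative to Alb by 2.13 from con to Ht (edgeR adjusted p = 0.0154). Gls2 was 9.14 and 6.24 per 1000 Alb counts in con, 2.62 to 5.64 over Mt3 and Mt2, 1.82 and 2.33 over Mt1 and 2.69 and 1.95 in Ht, and fell relative to Alb by 1.73 from con to Ht (edgeR adjusted p = 0.0225). The Mt1 and Ht samples overlapped for both genes, and neither passed relative to Alb from Mt to Ht. Pck1 per 1000 Alb counts was 35.4 and 31.3 in con, 20.1 to 40.1 over the Lt and Mt samples and 33.2 and 40.3 in Ht, with a change relative to Alb of 0.14 from con to Ht (SE 0.52, edgeR adjusted p = 0.794). Cdh1 went the other way from Hal, from 0.882 and 0.672 per 1000 Alb counts in con to 3.80 and 3.11 in Ht, higher by 2.15 relative to Alb (edgeR adjusted p = 0.0298).

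**Figure D2:**
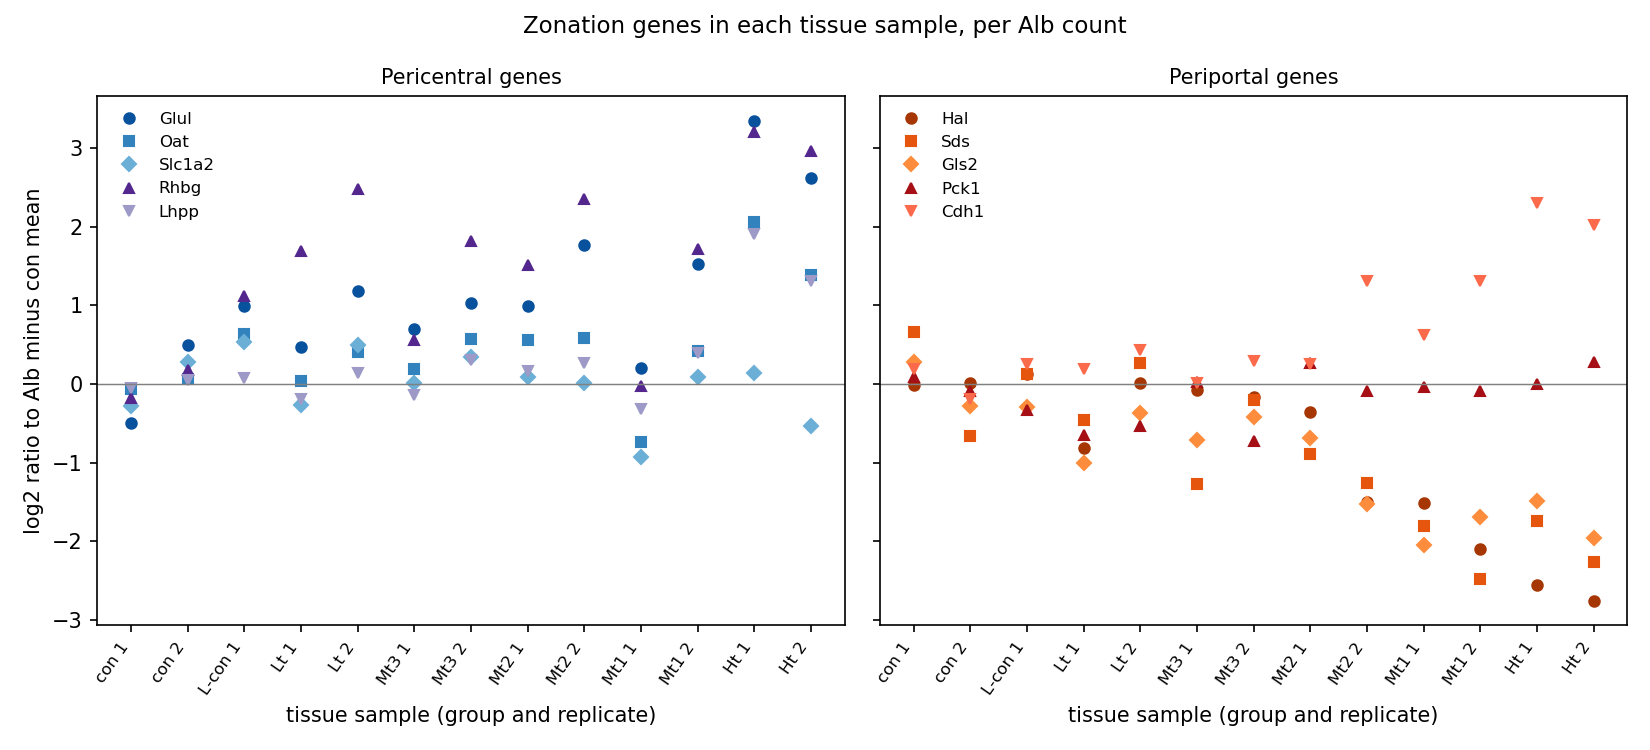
Log2 ratio of each gene's count to the Alb count, minus the mean of the con samples (vertical axis), for the pericentral genes (left) and the periportal genes (right) in each of the 13 tissue samples along the horizontal axis, with 1 point per sample. Per 1000 Alb counts, Glul is at 78.2 and 47.0 in Ht beside 5.45 and 10.8 in con, and Hal at 1.04 and 0.906 in Ht beside 6.06 and 6.20 in con.

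Relative to Alb, edgeR's quasi-likelihood test called 0 of the 10 genes from con to Lt, where 6.83% of all genes tested were called, 6.81% higher and 0.0175% lower, and 0 had an unadjusted p under 0.05. It called 0 from con to Mt, where 40.9% of all genes were called, 40.8% higher and 0.128% lower. Sds (-1.42, adjusted p = 0.0551) and Gls2 (-1.18, adjusted p = 0.0687) then had an unadjusted p under 0.05, which makes 2 of 10. A linear model in limma with the spread of each gene alone, chosen after seeing the data, also called 0 in both comparisons, with 0 of 17186 genes called in all from con to Lt and 590 from con to Mt. The con to Mt count was 3 without the first Mt2 sample and 3 without the first Mt1 sample (Glul higher, Sds and Gls2 lower), and 1 without the second Mt1 sample (Gls2). With the replicate number as a block it was 3 (Glul higher, Sds and Gls2 lower).

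From Mt to Ht, 4 of the 10 were called higher relative to Alb (Glul, Oat, Lhpp and Cdh1), where 90.8% of all genes were, and 1 lower (Hal), where 0.233% were, or 91.0% of genes called in either direction beside 5 of 10. Without the first Ht sample 1 gene was called, Glul, without the second 2, Glul and Oat, and without either Mt3 sample 3, Glul, Oat and Hal. From con to Ht, 4 were called higher (Glul, Oat, Rhbg and Cdh1), where 91.0% of all genes were, and 3 lower (Hal, Sds and Gls2), where 0.314% were, or 91.4% in either direction beside 7 of 10. Without the first con sample 2 genes were called, Glul and Hal, and without the first Ht sample the same 2. Without the second con sample 4 were called (Glul, Hal, Sds and Gls2) and without the second Ht sample also 4 (Glul, Oat, Rhbg and Hal).

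Most genes of the table are not hepatocyte genes, and their median relative to Alb was 5.99 from con to Ht, so the 12 hepatocyte markers are the closer measure. Relative to Alb, 7 of the other 11 markers were higher from con to Ht and 0 lower in edgeR's quasi-likelihood test, with 0 further at an unadjusted p under 0.05 and a median of 1.37. The medians relative to Alb were 1.76 for the pericentral genes, which ran from -0.18 to 3.06, and -1.73 for the periportal genes. The latter ran from -2.65 (Hal) to 2.15 (Cdh1), so the zones overlapped. Trf was the marker with the largest change at 3.40, above Glul, and Apoa2 had the lowest at -0.49. With all 12 markers summed in place of Alb, the same 7 zonation genes were called from con to Ht. Alb was part of this sum and its most abundant member in every sample, so the sum is not a reference independent of Alb.

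As a description without a test, the zonation balance was the mean log2(CPM + 1) of the pericentral genes minus that of the periportal genes. It stood at -2.48 and -1.58 in con, at -1.38 in L-con, at -1.20 and -1.12 in Lt, at -1.36 and -1.01 in Mt3, at -1.11 and -0.35 in Mt2, at -1.34 and -0.10 in Mt1 and at 0.89 and 0.54 in Ht. The Ht samples were the only ones above 0, the second Mt2 and second Mt1 sample came next, and the other 9 were below -1. The difference between the means of Ht and con was 2.74. Without Glul and Cdh1, a choice made after seeing the data, the balance was 0.07 and -0.27 in Ht and -3.75 and -2.97 in con, a difference of 3.26. With the periportal mean taken without Pck1 and Cdh1, the second Mt2 (0.448) and second Mt1 sample (0.949) were above 0 as well.

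**Figure D3:**
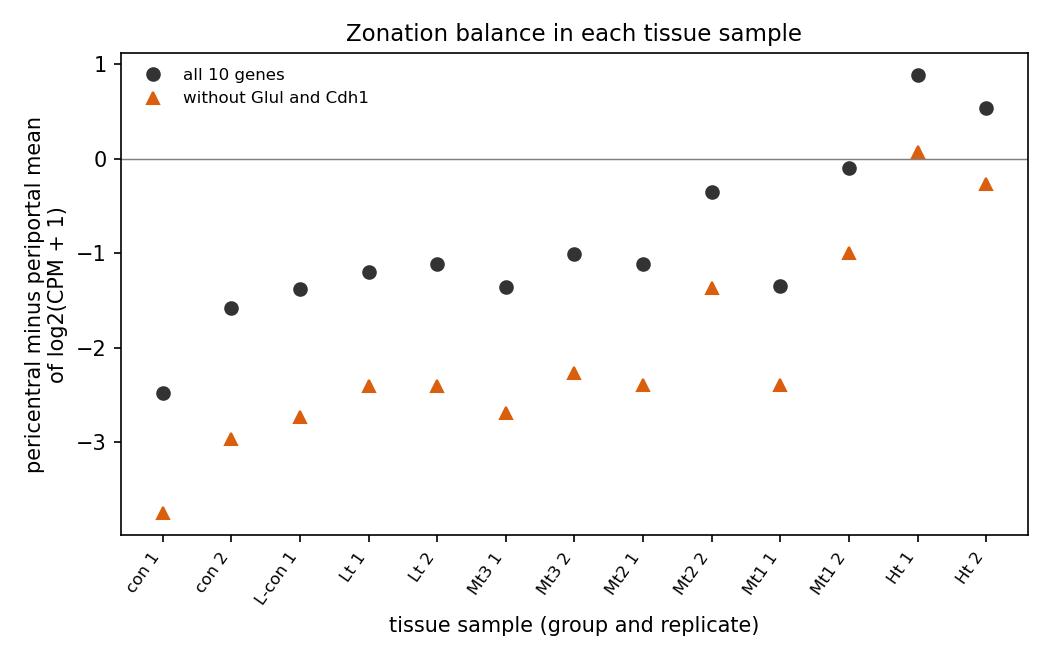
Zonation balance, the mean log2(CPM + 1) of 5 pericentral minus 5 periportal genes, in each of the 13 tissue samples, for all 10 genes (circles) and without Glul and Cdh1 (triangles). The circles run from -2.48 in a con sample to 0.89 in an Ht sample and lie above 0 in the Ht samples alone, while the triangles in Ht lie at 0.07 and -0.27.

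Other genes known to be zonated were followed as lists. Of 25 other pericentral genes, 0 were called in edgeR's quasi-likelihood test from con to Lt, with 3 at an unadjusted p under 0.05, 12 were lower and 1 higher (Slc13a3, 1.56) from con to Mt, beside 10.3% and 20.2% of all genes, and 23 were lower from con to Ht, beside 24.1%. Their median from con to Ht was -4.27, close to that of the pericentral 5, with Cyp2c37 lowest at -7.49 and Axin2 (0.56) and Slc13a3 (0.23) not called. Of 21 other periportal genes, 1 was higher from con to Lt, beside 12.4% of all genes, with 3 more at an unadjusted p under 0.05, 15 were lower and 1 higher from con to Mt, and 20 were lower and 1 higher from con to Ht, where 25.8% of all genes were higher, with a median of -6.26 and Etnppl lowest at -9.68. The gene higher in each was Ctsc (1.14 from con to Ht), a lysosomal protease that immune cells also make.

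Relative to Alb, 11 of the 25 other pericentral genes were higher and 1 lower (Cyp2c37, -1.64) from con to Ht, beside 91.0% of all genes higher and 0.314% lower, with a median of 1.61 beside 5.99 for all genes. Of the 21 other periportal genes, 2 were higher (Ctsc and Igf1) and 4 lower (Etnppl, Cyp2f2, Tat and Cps1), with a median of -0.42, nearer to 0 than the -1.73 of Hal, Sds, Gls2, Pck1 and Cdh1. Of 22 genes of the Wnt pathway, 12 were lower from con to Ht in CPM, among them the targets Sp5 (-5.04), Notum (-4.87) and Lgr5 (-3.71) and the ligands Wnt2 (-3.19) and Rspo3 (-2.63), and 2 were higher (Lef1, 3.15, and Tcf7, 1.10), beside 24.1% of all genes lower and 25.8% higher. The target Axin2 (0.56) was not called. The lists are not separate, since genes such as Axin2, Sp5 and Lgr5 were also among the 25 other pericentral genes. The median of the Wnt list was -1.18. Relative to Alb, 18 of the 22 were higher, beside 91.0% of all genes, and 0 lower in edgeR's quasi-likelihood test, with 0 more at an unadjusted p under 0.05 and a median of 4.71 beside 5.99 for all genes.

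Relatives and partners of the 10 genes did not all follow them. Pck2, the mitochondrial relative of Pck1, rose by 2.91 on the log2 scale from con to Ht in edgeR's quasi-likelihood test, from 7.86 ± 1.53 to 59.1 ± 5.53 CPM (SD, n = 2 samples each). Slc1a5 rose by 4.06 and Slc1a4 by 2.67, both carriers of neutral amino acids in the family of Slc1a2. Sdsl, the relative of Sds, fell by 3.19 and Cdh2, N-cadherin, by 3.72.

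Among 24 partner enzymes and carriers, 23 were tested and 7 were higher and 15 lower from con to Ht, beside 25.8% and 24.1% of all genes. Enzymes of serine synthesis were higher, Phgdh by 8.48 and Psat1 by 8.18, where Sds, which breaks serine down, fell. Phgdh was at 0.561 ± 0.208 CPM in con and 201 ± 5.85 in Ht (SD, n = 2 samples each). Aldh18a1 (5.76) and Pycr1 (4.70), which make proline from glutamate, and Asns (3.56), which uses glutamine, were higher as well. The enzymes that follow Hal in the breakdown of histidine were lower, with log2 fold changes of -6.88 for Uroc1, -6.42 for Amdhd1 and -6.26 for Ftcd. G6pc, which acts after Pck1 in glucose synthesis, was at -6.42. Phgdh, Psat1, Aldh18a1 and Pycr1 were already higher from con to Lt in the same edgeR test, while 0 of the 10 zonation genes were called there.

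Cells sorted from Mt2 metastases at 11 dpi by F4/80 or by CD11b, with 3 libraries each, were scaled apart from the tissue, so levels are set side by side without a test. Glul was at 690, 474 and 411 CPM in F4/80+ cells and 548, 493 and 382 in CD11b+ cells, above the 127 and 117 CPM of Ht tissue. Oat was at 89.4 ± 10.6 CPM in F4/80+ and 117 ± 23.9 in CD11b+ cells, and Lhpp at 12.6 ± 0.495 and 15.7 ± 2.05 (SD, n = 3 libraries each), also above Ht. Cdh1 was at 2.47 ± 0.519 CPM in F4/80+ and 10.9 ± 2.75 in CD11b+ cells (SD, n = 3 libraries each), the former below the 6.18 and 7.76 CPM of Ht.

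The other genes were low in sorted cells. Means in F4/80+ and CD11b+ cells were 1.40 and 0.214 CPM for Slc1a2, 0.269 and 0.166 for Sds, 0.718 and 0.503 for Gls2 and 1.42 and 0.995 for Pck1. In the CD11b+ libraries Slc1a2 had 2, 3 and 6 counts and Sds 3, 3 and 3. All of these but the 6 were at or under the floor of 3 counts. Hal was at 0.517 ± 0.265 CPM in F4/80+ and 1.72 ± 1.28 in CD11b+ cells (SD, n = 3 libraries each), the latter at 2.86, 1.99 and 0.329 CPM beside the 1.70 and 2.26 CPM of Ht. Rhbg had 0 counts in all 3 F4/80+ libraries, where the floor stood at 0.164 to 0.169 CPM before scaling, and 1 count over the 3 CD11b+ libraries. Alb was at 157 ± 61.5 CPM in F4/80+ and 63.7 ± 37.1 in CD11b+ cells (SD, n = 3 libraries each). Genes of the markers used for sorting were present in F4/80+ and CD11b+ cells, Adgre1 (F4/80) at 794 and 594 CPM and Itgam (CD11b) at 286 and 432, and Csf1r was at 2849 and 2190.

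A pair of macrophage markers, named after their values were seen, was also read in tissue. The pair does not stand for the 12 macrophage markers listed, since some others of these were called lower from con to Ht. Adgre1, the gene of F4/80, was at 38.3 ± 12.5 CPM in con and 130 ± 17.9 in Ht, and Csf1r at 89.4 ± 24.4 and 271 ± 26.2 (SD, n = 2 samples each). From con to Ht the log2 fold change was 1.76 for Adgre1 (edgeR adjusted p = 0.000883) and 1.60 for Csf1r (edgeR adjusted p = 0.0012). All 8 markers of proliferating cells, 7 of 8 of fibroblasts and 8 of 8 of monocytes were also higher from con to Ht, as were 25.8% of all genes. The part of these cells in the levels of the zonation genes in Ht was not tested.

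For Cdh1, which epithelial cells other than hepatocytes also make, 8 epithelial markers were followed. Of the 7 tested, 3 were lower from con to Ht (Cdh1, Krt8 by 1.57 and Krt18 by 1.47) and 0 higher in edgeR's quasi-likelihood test, with 0 more at an unadjusted p under 0.05, beside 24.1% of all genes lower and 25.8% higher. Their summed level, Cdh1 included, stood at 564 and 514 CPM in con, at 589 in L-con, at 791 and 442 in Lt, at 540 and 427 in Mt3, at 505 and 401 in Mt2, at 981 and 570 in Mt1 and at 111 and 215 in Ht, with Krt8 the most abundant in every sample and Krt20 not tested for low counts. Relative to Alb 7 of these 7 were called higher from con to Ht, as were 91.0% of all genes, with a median of 5.14. The part of tumor or bile duct epithelium in the level of Cdh1 was not tested.

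Other cell type lists from con to Ht gave 3 of 6 Kupffer cell markers and 6 of 11 endothelial markers lower, and 3 of 9 neutrophil and 2 of 7 T and B lymphocyte markers higher, beside 24.1% of all genes lower and 25.8% higher. Over the 13 tissue samples, the genes with log2(CPM + 1) most like Glul by Pearson's r were Cyp2d40 (0.995) and Adh4 (0.991), and those most like Hal were Fbp1 (0.998), 0610005C13Rik (0.998) and Aldh8a1 (0.998), among 17187 genes. These samples share the gradient of hepatocyte RNA, and the values describe likeness alone. Oat and Lhpp lie on chromosome 7 with 34239 bases and 2 listed genes between them.

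Promoters of Glul and Hal are shown because these genes moved in opposite directions relative to Alb, higher for the pericentral and lower for the periportal gene. The table of RefSeq promoters used (GRCm38.p6) matched 5 of the 10 genes by symbol, Glul, Oat, Slc1a2, Hal and Pck1, and had no entry for Rhbg, Lhpp, Sds, Gls2 and Cdh1. Motifs were searched on both strands of the 250 bases before the start. The Slc1a2 promoter used, at chr2:102706188-102706437, lies inside the annotated gene (chr2:102658659-102790784, + strand), before an internal start. The TCF/LEF motif CTTTGAT, in 3.21% of 32851 promoters, was in Slc1a2 and Hal, and its other form CTTTGAA, in 4.46%, in 0 of the 5. The HNF4 motif CAAAGTCCA, in 0.384%, was in 0 of the 5, and its reverse complement TGGACTTTG shares the letters CTTTG with the TCF/LEF forms. The CCAAT box CCAAT, in 33.8%, was in Glul, Oat and Hal, and the TATA box TATAAA, in 12.4%, in Hal on the other strand. Capitals mark the CCAAT boxes in Glul at chr1:153899679-153899928 (+ strand), and the CTTTGAT motif, the CCAAT box and the reverse TATA box in Hal at chr10:93488518-93488767 (+ strand). A match describes letters and is not shown to be a bound site.
Glul: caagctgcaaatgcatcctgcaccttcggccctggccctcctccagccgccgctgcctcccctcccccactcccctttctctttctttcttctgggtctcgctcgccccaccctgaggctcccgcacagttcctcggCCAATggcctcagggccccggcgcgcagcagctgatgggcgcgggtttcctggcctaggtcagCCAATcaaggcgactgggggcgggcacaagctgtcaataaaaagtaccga
Hal: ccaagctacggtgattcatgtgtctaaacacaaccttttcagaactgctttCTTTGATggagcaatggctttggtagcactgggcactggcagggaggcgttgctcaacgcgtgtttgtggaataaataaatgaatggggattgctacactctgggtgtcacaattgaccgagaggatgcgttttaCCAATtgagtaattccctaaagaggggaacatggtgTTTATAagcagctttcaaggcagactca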

How the data were processed

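The raw counts per gene deposited by the authors were used, made with HISAT2 2.0.5 and featureCounts 1.5.0-p3 on GRCm38. Genes were tested in R 4.3.3 with edgeR 4.0.16 (filterByExpr, TMM scaling, quasi-likelihood F test, Benjamini-Hochberg over all genes tested), in a fit of 13 samples in 7 groups with group alone as the term. Mt was the mean of Mt3, Mt2 and Mt1. The first and the third Ht library, given by the methods as made identical, were summed, although their counts differed beyond sampling noise, with a chi-square per degree of freedom of 30.3 beside 29.1 and 13.2 for each of them against the second library. For values relative to Alb, the log of each sample's Alb count replaced the scaled library size. DESeq2 1.42.0 and limma 3.58.1 served for alternatives. Levels used a pseudocount of 1 on the log scale in the balance. Sorted cells had a TMM scaling of their own.

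Some genes and marker lists of the plan are not reported here. Named were all 10 zonation genes and Alb, in each list the genes with the largest and smallest change, those against its direction and those paired by function with a zonation gene, and genes among the 3 most like each of Glul and Hal. The lists of other zonated genes, Wnt genes, cell markers, relatives and partners, and the 10 genes, were chosen with earlier results of these data known. The robust fit, the limma fit and the balance without Glul and Cdh1 were chosen after seeing the data. Genes of the serine, proline and asparagine pathways, and Adgre1, Csf1r, Itgam, Tat, Cps1, Notum, Lgr5, Wnt2 and Rspo3, were named after their values were seen.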

Additional observations from a re-analysis of the deposited data

Results flagged for a closer look

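The L-con library, from liver without tumor of an injected mouse, entered the fit but no comparison. In it 4 of the 5 pericentral genes were above both con samples, and this is what drew attention to them. Of all 17187 genes tested, 6186 were above both and 5524 below both. Glul was at 1431 CPM beside 705 and 1180 in con, Oat at 1531.5 beside 1303 and 1204, Slc1a2 at 265 beside 207 and 258, and Rhbg at 3.29 beside 1.86 and 1.98. Lhpp, at 76.5 CPM, was below both con samples. Of the 5 periportal genes 0 were above both, 2 lay between them (Sds and Cdh1) and 3 were below both (Hal, Gls2 and Pck1). Per Alb count, 5 of 5 pericentral genes were above both con samples, as were 2 of 5 periportal genes (Hal and Cdh1) and 11336 of 17186 genes. L-con had 1 sample, so none of these differences was tested.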

How the results depend on the processing

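The fall of all 10 zonation genes from con to Ht kept its direction and its side of the threshold under all 14 alternatives, with 9 to 10 genes called. The count of 9 came with a minimum of 10 counts in every sample, which left 9 of the 10 genes to test. Leaving out each library in turn gave 10 to 10.

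From con to Lt, where edgeR called 0 (1 at an unadjusted p under 0.05, and 0 by DESeq2), 4 genes were called lower without a filter on low counts, 2 with only the groups compared in the fit, and 1 (Rhbg) higher with total-count scaling. The cause was not tested. Leaving out a library gave 0 to 0. From con to Mt the 6 genes called became 3 with only the groups compared and 2 with Mt as a single group of 6, where the spread between the Mt groups counts as error. Leaving out a library gave 0 to 8. From Mt to Ht the 10 genes called became 0 to 10 when a library was left out, the value of 0 coming without either Ht sample, where 0 of 17070 and 0 of 17111 genes were called in all. The lone Ht sample was then assumed to vary like the other groups.

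Relative to Alb, 0 genes were called from con to Lt under all 16 alternatives. From con to Mt the count of 0 (2 at an unadjusted p under 0.05 in edgeR) became 1 with Ht as 3 libraries, 3 with 12 hepatocyte markers summed as the reference, 2 with Ttr and 3 with Apoa2. The cause was not tested. Leaving out a library gave 0 to 3. From Mt to Ht the 5 genes called became 3 without a filter on low counts and 2 with only the groups compared, and 1 to 6 when a library was left out. From con to Ht the 7 genes called became 2 to 4 when a library was left out, and 6 to 8 under the other alternatives. Glul and Hal were called from con to Ht under all 16 alternatives. The limma fit with the spread of each gene alone, chosen after seeing the data, called 8, with Lhpp added, and the robust edgeR fit, also chosen then, called 7.

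The replicate numbers were also fitted as a block. Over 15 pairs of groups, the correlation of replicate differences ran from -0.363 to 0.715 and was above 0.1 in 6, which are all the pairs among Lt, Mt3, Mt2 and Mt1. The labels do not say that the numbers pair samples. With the block, 8 genes were called from con to Mt, with Pck1 and Cdh1 added. Relative to Alb, the blocked fit called 3 from con to Mt (Glul, Sds and Gls2), 6 from Mt to Ht, with Rhbg added, and 8 from con to Ht, with Lhpp added.

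The difference in zonation balance between Ht and con, 2.74, was 3.87 with the periportal mean taken without Pck1 and Cdh1, and 3.26 without Glul and Cdh1, a choice made after seeing the data. Leaving out a library gave 2.29 to 3.19. The balance in Mt1, -0.72, changed sign to 0.215 without Pck1 and Cdh1, and that in Ht, 0.71, changed sign to -0.0972 without Glul and Cdh1. Both follow from the genes left out.

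The groups held 1 or 2 samples, with 6 residual degrees of freedom over the fit. In the fit relative to Alb edgeR's prior degrees of freedom were infinite, so its p-values there do not rest on these 6, while most genes carry the spread of Alb, and 91.4% of all genes were called from con to Ht, so adjustment added little there. Rhbg, with 9 to 72 counts per sample, is limited by depth, as are Hal, Sds and Gls2 in Ht, and no strand was recorded for overlapping genes.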
